A study of Homo sapiens with 8 samples.

Results

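The reading frames described here are small open reading frames (smORFs) of the upstream ORF class, which lie in the 5′ untranslated region (5′ UTR) of a host gene. Their first codon is not ATG, and their mean PhyloCSF score, a measure of protein-coding conservation across species, is 0 or below. The rule took 10762 of the 24199 smORFs in the count table (44.5%), and none of the 10762 lacked a PhyloCSF score. They lie in 4050 host genes. The members were named for near-cognate starts, that is, for codons 1 base away from ATG, but the data go against that name. Only 1780 of 10762 (16.5%) begin with 1 of the 9 codons that differ from ATG at a single base, and 60 different first codons occur. They are therefore called ATG-free upstream frames, and "first codon" means the codon at which the deposited sequence opens, not a mapped start of translation.

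Ribosome profiling (Ribo-Seq) reads the stretches of RNA that ribosomes shield from a nuclease. It was carried out on Caco-2, an established cell line from a human colon adenocarcinoma, which comes to resemble small-intestinal absorptive cells once it differentiates. The 8 libraries form 4 groups of 2: undifferentiated cells, differentiated control cells without a treatment, and differentiated cells that received either micelles without lipid, made with the bile salt taurocholate, or lipid micelles with albumin, oleic acid and cholesterol. The smORFs had been called in several cell types, whereas all counts here come from Caco-2, and since no label says that the 2 libraries of a group are separate cultures, p-values measure the spread between these libraries, which may be technical. Library totals ran from 506382 to 884711 smORF counts, of which 264951 to 458754 fell on ATG-free upstream frames. At 10 counts or more, 5303 to 6721 of these frames were detected in a library, 8329 (77.4%) in at least 1 library and 3915 (36.4%) in all 8, while 462 had no count in any.

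An initiating ribosome is loaded at the 5′ end of an mRNA and scans towards the main coding sequence. Frames it meets on the way can be translated, and translation of such an upstream ORF usually lowers the share of ribosomes that reach the main start. Codons that differ from ATG at a single base, CTG foremost, can also be used as starts, at lower efficiency and with a strong dependence on the surrounding bases, above all a purine 3 bases before the codon and a G directly after it. Several stress-response mRNAs and a small number of proteins with extended N termini are known for such starts.

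The shortest frames among those with the largest values are shown whole, 5′ to 3′, to let their codons be read directly. Capitals mark each in-frame codon that is 1 base from ATG, and coordinates are on hg38.
AFP IEC_04755, chr4:73436221-73436250, plus strand: ATTGTGcttccaccaCTGccaATAacaaaa
APOA4 IEC_16317, chr11:116823285-116823302, minus strand: ttcccaCTGcagcgcAGG
LOX IEC_13192, chr5:122078113-122078142, minus strand: ATCccacccTTGgcaTTGcttggtggagac
CLRN3 IEC_16703, chr10:127892852-127892869, minus strand: ATAccagacttcaaaaga
EIF5A IEC_10199, chr17:7307602-7307631, plus strand: TTGgtcagtggggagtcggcgcctgcgtac

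The next sequences show where longer frames open. Each runs from 9 bases before the first codon to 12 bases after it along the transcript, with the first codon in capitals, and the coordinates are those of the whole frame. In each of them the 3 bases before the capitals are a stop codon (TGA or TAG).
LOX IEC_13191, chr5:122078081-122078158, minus strand: ccgccttgaCTGgggaagggtctg
AGMO IEC_15823, chr7:15561890-15561961, minus strand: tggttttagCTGttctctgacaaa
AURKA IEC_15983, chr20:56391948-56392043, minus strand: cgtccctgaGTGtccttggcgctg
TKFC IEC_08604, chr11:61334563-61334697, plus strand: aaggcgtgaTTGtgccagtcgact
ANLN IEC_04762, chr7:36389847-36389951, plus strand: caaatttgaACGgctgcagaggcc
SERPINA1 IEC_21821, chr14:94388566-94388870, minus strand: actgtctgaCTCacgccaccccct
SERPINA1 IEC_18077, chr14:94388566-94390481, minus strand: agagcttgaGGAgagcttgaggag
SLC26A3 IEC_19496, chr7:107794591-107803174, minus strand: tagaactagAACttagaactttat

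The position of the frames in their transcripts was the same in nearly every case. Of the 10762, 9252 could be placed in the GENCODE transcript that the annotation names. Of these, 4421 (47.8%) begin within 3 bases of the 5′ end of the transcript and 4772 (51.6%) begin directly after an in-frame stop codon, which together is 9193 (99.4%). At the other end, 9139 (98.8%) are followed by a stop codon. Among the 5797 upstream ORFs that begin with ATG and also lack conservation, 5291 could be placed and 352 of them (6.65%) begin at a transcript end or after a stop. No ATG-free upstream frame holds a methionine codon anywhere. These are thus the open stretches that remain between 2 stops, or between the cap end and a stop, when the transcripts are translated in 3 frames, which is how the list of candidate frames was made.

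No near-cognate codon stood out as the usual opening. CTG opened 294 frames (2.73%), GTG 313 (2.91%), AGG 293 (2.72%), AAG 219 (2.03%), ATT 191 (1.77%), TTG 144 (1.34%), ACG 126 (1.17%), ATC 123 (1.14%) and ATA 77 (0.715%). The most common first codon, GAG, opened 411 frames (3.82%). CTG was less common as a first codon than among the later codons of the same frames, where it made up 3.66%, while ATT was more common than its 0.884% there. Near-cognate codons made up 16.5% of first codons, against 14.4% of the 413349 later codons in the same frames and 9 of the 60 possible codons (15%). Their share was 15.8% among frames that open at a transcript end and 16.9% among those that open after a stop.

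**Figure D1:**
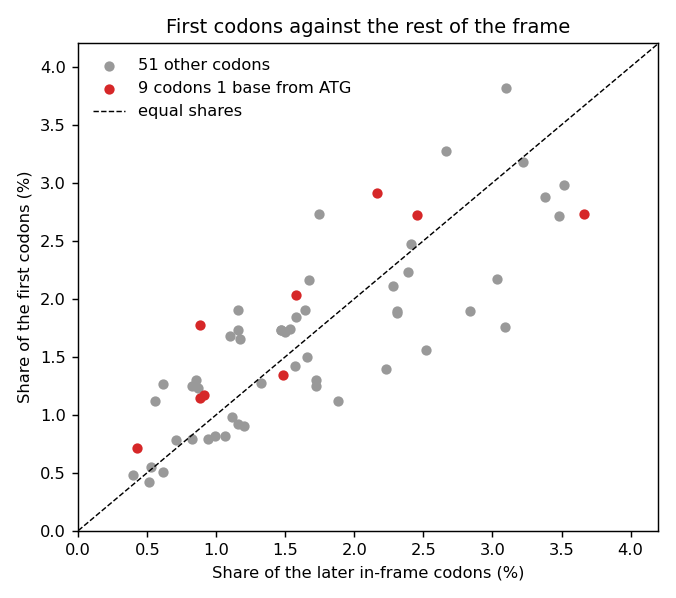
Each point is 1 of the 60 first codons of the ATG-free upstream frames. The x axis is its share (%) of all later in-frame codons, the y axis its share (%) of first codons, and red points are the 9 codons 1 base from ATG. The red points lie on both sides of the line of equal shares, and together they hold 16.5% of first and 14.4% of later codons.

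Near-cognate codons were also present inside the frames. They made up 14.4% of later codons, and the median frame had 32 codons. Most frames would therefore hold 1 whether or not it served as a start. At least 1 lay in frame in 10490 of 10762 (97.5%), the first of them at a median position of codon 5, and an in-frame CTG lay in 7394 (68.7%). The first in-frame near-cognate codon was CTG in 2509 frames (23.9%), GTG in 1736 (16.5%), AGG in 1655 (15.8%) and ATA in 321 (3.06%). Among all later codons CTG made up 3.66%, GTG 2.16%, AGG 2.45% and ATA 0.427%. A purine at -3 together with G at +4, counted from the first base of the codon as +1, surrounded 3135 of 14659 in-frame CTG codons (21.4%) and 19.5% of all in-frame codons examined. The counts cover whole frames, so they do not show at which codon a ribosome started.

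The frames had a median length of 32 codons and a range of 6 to 150. They were rich in G and C, with a median of 62% against 55.9% in ATG upstream ORFs without conservation, and 9964 (92.6%) lay wholly in annotated 5′ UTR. The RibORF score, which rates the 3-base periodicity and the evenness of the reads over a frame, had a median of 0.84 (quartiles 0.765 and 0.929). It was 0.93 (quartiles 0.828 and 1) for the ATG upstream ORFs, which are shorter, at a median of 21 codons. The median score differed little between first codons: 0.851 for CTG, 0.844 for GTG, 0.835 for TTG, 0.825 for ACG, 0.841 for the other near-cognate codons and 0.839 for the remaining codons. Of the frames, 8689 (80.7%) overlap another smORF on the same strand and 3713 (34.5%) overlap an ATG smORF. Reads in such places count for each frame, so neighbouring frames are not independent measurements.

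Levels were compared between first codons per codon of frame length, as CPM (counts at a scaled library total of 1000000) divided by the number of codons. The median over frames, averaged over 8 libraries, was 0.511 ± 0.15 CPM per codon (SD, n = 8) for ACG, 0.536 ± 0.0533 for CTG, 0.577 ± 0.0753 for frames whose first codon is not near-cognate, 0.591 ± 0.0607 for the other near-cognate codons, 0.607 ± 0.119 for GTG and 0.628 ± 0.0844 for TTG. No neighbours in this order differed by more than their spread over libraries. The 8 libraries span 4 groups, so these SDs include differences between groups. GTG and TTG lay above the frames without a near-cognate first codon in 8 of 8 libraries, by a mean ratio of 1.04 (range 1 to 1.16) and 1.09 (1.02 to 1.16). CTG and ACG did so in 2 of 8, at 0.934 (0.83 to 1.05) and 0.874 (0.739 to 1.13). For GTG the excess lay mainly in undifferentiated cells, at 0.786 and 0.808 against 0.691 and 0.699. In control cells GTG had 0.559 and 0.513 against 0.543 and 0.511. The 2 libraries with ACG above were the undifferentiated ones, at 0.712 and 0.788. In the differentiated libraries ACG ran from 0.395 to 0.47.

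The near-cognate codons did not hold the ends of the order. Among all 60 first codons the lowest median level belonged to ACT, at 0.296 ± 0.0691 CPM per codon, and the highest to TTT, at 0.92 ± 0.126 (SD, n = 8). The 9 near-cognate codons lay between 0.511 for ACG and 0.654 ± 0.0806 for ATT. Within any of the 6 classes the frames themselves differed far more than the classes did: the quartiles of the mean level over frames were 0.211 and 1.65 CPM per codon for CTG and 0.229 and 1.6 for frames whose first codon is not near-cognate. In the 57 CTG frames that overlap no other smORF the ratio to frames of the same kind without a near-cognate first codon was 0.698. In frames of 20 to 60 codons it was 0.794. These are descriptions without a test, since the frames share transcripts, reads and libraries.

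The share of all smORF counts that fell on ATG-free upstream frames was lower in every differentiated library than in both undifferentiated ones. It was 60.7% and 58.4% in undifferentiated cells, 52.3% and 50.7% in control cells, 50.7% and 49.2% with micelles without lipid, and 55.4% and 51.9% with lipid micelles. Control cells lay 8.03 percentage points below undifferentiated cells (59.5% ± 1.59 against 51.5% ± 1.17, SD, n = 2). The exact permutation test, two-sided, gave p = 0.333, which is the smallest that 2 against 2 allows. ATG upstream ORFs without conservation held 17.8% and 17.8% of the counts in undifferentiated cells and 17.9% to 19.2% in the differentiated libraries, where the groups did not overlap either. Frames that overlap no other smORF held 14.8% to 15.8% of the member counts in all libraries. Near-cognate first codons together held 16% to 16.5% of the member counts, in undifferentiated and differentiated libraries alike.

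**Figure D2:**
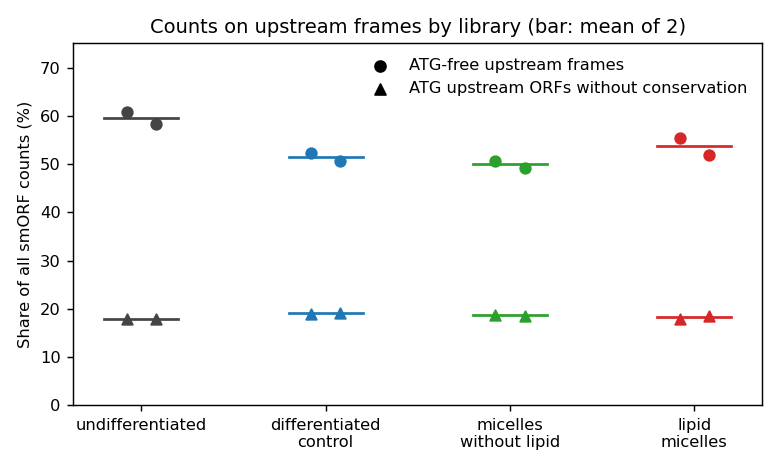
The y axis gives the share of all smORF counts (%) in each of 8 libraries, grouped on the x axis, with a bar at the mean of each 2. Circles are ATG-free upstream frames, at 58.4% and 60.7% in undifferentiated and 49.2% to 55.4% in differentiated libraries, and triangles are ATG upstream ORFs without conservation, at 17.8% to 19.2%.

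To ask which frames changed with differentiation, the control and undifferentiated libraries were contrasted with edgeR's quasi-likelihood test over all smORFs. A frame was called at an adjusted p under 0.05 and a difference of at least 2-fold. Of the 10762 frames, 7563 passed the filter on low counts. Of these, 699 (9.24%) were called higher in control cells and 1598 (21.1%) lower, against a background of 17.7% higher and 15.6% lower over all 15182 smORFs tested. The median log2 difference was -0.35 for ATG-free upstream frames and 0.01 for all smORFs tested. For the 3321 ATG upstream ORFs tested it was 0.04, with 14.7% called higher and 13.9% lower. The scaling between libraries was computed over the same 15182 smORFs, and 7563 of these are the ATG-free frames. The differences are therefore relative to this mix and do not show an absolute fall. The background also includes the ATG-free frames themselves. In a simulation of this comparison on 14034 smORFs, 65 of 85 changes of 4-fold (76.5%) and 11 of 91 of 2-fold (12.1%) were called. It left 13858 smORFs unchanged, whereas 33.3% of all smORFs tested were called in the data. The adjusted p was thus a stricter cut in the simulation, and its rates need not hold for the data. The call itself requires an estimate of 2-fold or more, which a true 2-fold change often misses. A difference in bulk counts can come from the number of cells, from the host RNA or from the ribosomes on it, and these cannot be told apart here.

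**Figure D3:**
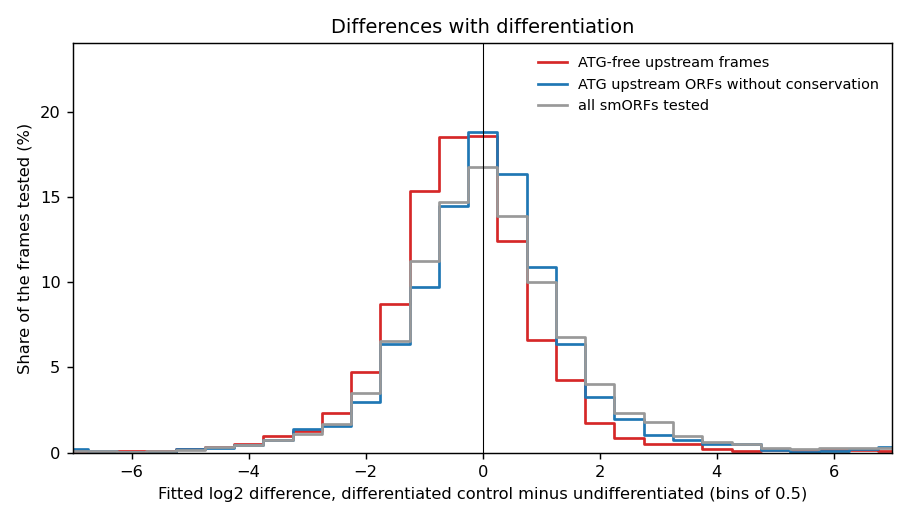
The x axis is the fitted log2 difference between differentiated control and undifferentiated cells in bins of 0.5, and the y axis the share (%) of the frames tested in a set. The ATG-free upstream frames (red) are shifted to the left, with a median of -0.35 against 0.04 for ATG upstream ORFs (blue) and 0.01 for all smORFs (grey).

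The surplus of lower calls was present for each class of first codon. Of 188 CTG frames tested, 49 (26.1%) were called lower and 14 (7.45%) higher. For GTG these were 46 (20.7%) and 13 (5.86%) of 222, for TTG 23 (21.3%) and 15 (13.9%) of 108, and for ACG 25 (28.4%) and 8 (9.09%) of 88. The other near-cognate codons had 118 (19%) lower and 71 (11.4%) higher of 622, and the frames without a near-cognate first codon 1337 (21.1%) lower and 578 (9.12%) higher of 6335. Median log2 differences ran from -0.66 for ACG to -0.23 for the other near-cognate codons, with -0.36 for CTG and -0.35 for frames whose first codon is not near-cognate. Members of a class share host genes and reads, so these shares carry no test between classes.

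The size of this shift differed with the place where a frame opens and, without a steady order, with its base composition. Frames that open at the transcript 5′ end had a median log2 difference of -0.43, with 702 of 3111 (22.6%) called lower and 242 (7.78%) higher. Those that open after a stop had -0.21, with 613 of 3311 (18.5%) lower and 387 (11.7%) higher. The former have a median GC content of 65.4%, the latter of 57.4%. Among frames with at most 56.9% GC the median was -0.36 at the transcript end and -0.08 after a stop. Between 56.9% and 66.7% GC it was -0.44 and -0.38, and above 66.7% GC it was -0.44 and -0.32. ATG upstream ORFs had medians of 0.20, -0.09 and -0.06 in the same ranges. The part of GC content in these differences was not tested.

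Frames in a host gene mostly differed in the same direction as its ATG upstream ORFs. In 442 host genes that held both kinds in places that do not overlap, the median log2 differences of the 2 kinds had the same sign in 328 (74.2%). The ATG-free frames lay below the ATG upstream ORFs of the same gene by a median log2 difference of -0.23 (SD 1.22 over the genes). Where both medians were at least 2-fold, 88 of 92 had the same sign. The correlation across these genes was r = 0.703 (Pearson) and 0.641 (Spearman). The values come from the same 4 libraries, and genes are not independent replicates. Of the 1063 host genes with a called ATG-free frame, 7 held frames called in both directions. Genes with a single called frame could not do so, and overlapping frames of a gene share reads. That count therefore does not measure agreement between frames.

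The most counted frames lie in genes for secreted proteins. AFP encodes alpha-fetoprotein, a plasma protein of fetal liver and gut. Its frame IEC_04755 begins with ATT at the first base of the transcript, 42 bases before the main coding sequence, and had the highest mean CPM of all ATG-free frames. It held 708 and 415 counts in undifferentiated cells, 2543 and 4366 in control cells, 3117 and 4154 with micelles without lipid, and 4757 and 6120 with lipid micelles. Both undifferentiated libraries were below all 6 others. The log2 difference between control and undifferentiated cells was 2.52 ± 0.26 (SE, edgeR adjusted p = 1.41e-06), from 925 ± 265 to 5325 ± 500 CPM (SD, n = 2).

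The next 4 by level lie in SERPINA1, which encodes alpha-1-antitrypsin, a protease inhibitor secreted by liver and gut cells. IEC_17639 begins with CCT, IEC_21821 with CTC, and IEC_18077 and IEC_19399 with GGA. All 4 end at the same base, where an ATG smORF also ends. They share reads, so their likeness follows from the counting and tells nothing about the first codon. IEC_18077 held 1125 and 803 counts in undifferentiated cells, 1892 and 3377 in control cells, 2750 and 3779 with micelles without lipid, and 4281 and 5106 with lipid micelles. IEC_19399 had the same 8 counts, and IEC_21821 had 1132 and 806, then 1895 and 3377 in the first 2 groups. The log2 differences of the 4 frames were 1.31 to 1.34 (SE 0.24, edgeR adjusted p from 0.000331 to 0.000433), which is 1 measurement rather than 4. SERPINA1 holds 10 ATG-free frames with 8 first codons in 3 overlap clusters, and 7 of them were called higher.

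Among frames that rose from low counts, APOA4 stood first by the naming rule outside the near-cognate classes. It encodes apolipoprotein A-IV, which enterocytes secrete on chylomicrons. Its frame IEC_16317 has 6 codons and is shorter than a ribosome footprint. Counts were 4 and 3 in undifferentiated cells, 509 and 898 in control cells, 493 and 1033 with micelles without lipid, and 1127 and 1602 with lipid micelles, a log2 difference of 7.49 ± 0.41 (SE, edgeR adjusted p = 3.61e-09) with differentiation. SLC26A3, the chloride-bicarbonate exchanger of the gut surface, followed with IEC_19496, at 19 and 7 counts against 431 and 809 (log2 difference 5.45 ± 0.37, SE, edgeR adjusted p = 2.35e-08). The frame opens with AAC, and its first near-cognate codon is a CTG at codon 11.

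Frames with a CTG first codon rose in LOX and AGMO. LOX encodes lysyl oxidase, which cross-links collagen and elastin, and its frame IEC_13191 had 15 and 5 counts in undifferentiated cells, 143 and 223 in control cells, 220 and 452 with micelles without lipid, and 316 and 338 with lipid micelles. The log2 difference with differentiation was 4.09 ± 0.38 (SE, edgeR adjusted p = 5.92e-07). IEC_13192, which begins with ATC inside the same stretch, had 7 and 2 counts against 89 and 117 (4.41 ± 0.46, SE, edgeR adjusted p = 1.81e-06), and the 2 share reads. AGMO encodes the enzyme that cleaves ether lipids, and IEC_15823 had no count in undifferentiated cells and 23 and 40 in control cells, a rise of at least 9.65-fold (adjusted p = 1.01e-05 by edgeR). It overlaps no other smORF.

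The named frames with other near-cognate first codons that rose lie in genes of unlike function. TKFC encodes the kinase that takes up glyceraldehyde from fructose, and its TTG frame IEC_08604 had 18 and 6 counts in undifferentiated against 234 and 254 in control cells (log2 difference 4.29 ± 0.36, SE, edgeR adjusted p = 1.87e-07). The ACG frame IEC_08614 of the same gene had 18 and 9 against 214 and 229. These 2 TKFC frames end at the same base, where an ATG smORF also ends. They share reads and are not separate measurements. ANXA4 encodes a calcium-dependent membrane-binding protein, and its GTG frame IEC_04653 rose from 25 and 14 to 215 and 114 counts. Its control libraries were far apart, at 284 ± 192 CPM (SD, n = 2), but both lay above the undifferentiated ones, at 32.1 ± 10.2. SLC22A4, an organic cation transporter, had 2 and 2 counts in the GTG frame IEC_00111 against 16 and 29, a rise of at least 6.87-fold (adjusted p = 0.00047 by edgeR). AKAP7, which anchors protein kinase A, rose from 36 and 26 to 209 and 388 in the TTG frame IEC_07235, PLCE1, a phospholipase C, from 10 and 6 to 22 and 54 in the ACG frame IEC_03823, and CLRN3, a membrane protein of the clarin family, from 6 and 4 to 49 and 118 in the ATA frame IEC_16703.

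The named frames that fell are given next, first those in genes that act in dividing cells. MYBL2 encodes a transcription factor of dividing cells, and its CTG frame IEC_00163 had 188 and 163 counts in undifferentiated cells, 8 and 20 in control cells, 3 and 15 with micelles without lipid, and 8 and 12 with lipid micelles. The log2 difference was -3.75 ± 0.37 (SE, edgeR adjusted p = 9.6e-07). The GTG frame IEC_15983 of AURKA, the mitotic kinase Aurora A, fell from 49 and 29 to 4 and 3 counts. The AGG frames of RACGAP1 (IEC_21555), which acts in cytokinesis, and CENPK (IEC_17822), a kinetochore protein, fell from 65 and 79 to 2 and 4 and from 59 and 65 to 0 and 6. The ACG frame IEC_04762 of ANLN, which encodes the cytokinesis protein anillin, had 23 and 22 counts against 1 and 0, which puts control cells at least 7.7-fold lower (adjusted p = 0.000433 by edgeR). In FIGNL1, a gene of DNA repair, the GTG frame IEC_18536 had 29 and 38 against 2 and 5.

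DKK1 encodes a secreted Wnt antagonist, and its frame IEC_04016, which begins with GCA at the first base of the transcript, had 1252 and 1230 counts in undifferentiated cells. In the 6 differentiated libraries it had 7 to 21, a log2 difference of -6.53 ± 0.34 (SE, edgeR adjusted p = 3.16e-09). SPTSSB, a small subunit of serine palmitoyltransferase, had 584 and 598 counts against 12 and 36 in IEC_20256 (-4.76 ± 0.33, SE, edgeR adjusted p = 2.72e-08). SLC1A3, a glutamate transporter, fell from 86 and 86 to 6 and 8 in the TTG frame IEC_08259, which overlaps 14 other smORFs. EIF5A, a factor for peptide bond formation and termination, fell from 81 and 78 to 12 and 23 in IEC_10199. The CTG frame IEC_13492 of REG4, a secreted lectin of the gut, had 78 and 53 counts against 0 and 0, and the ACG frame IEC_19675 of CGGBP1, which binds CGG repeats, 23 and 20 against 0 and 0.

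**Figure D4:**
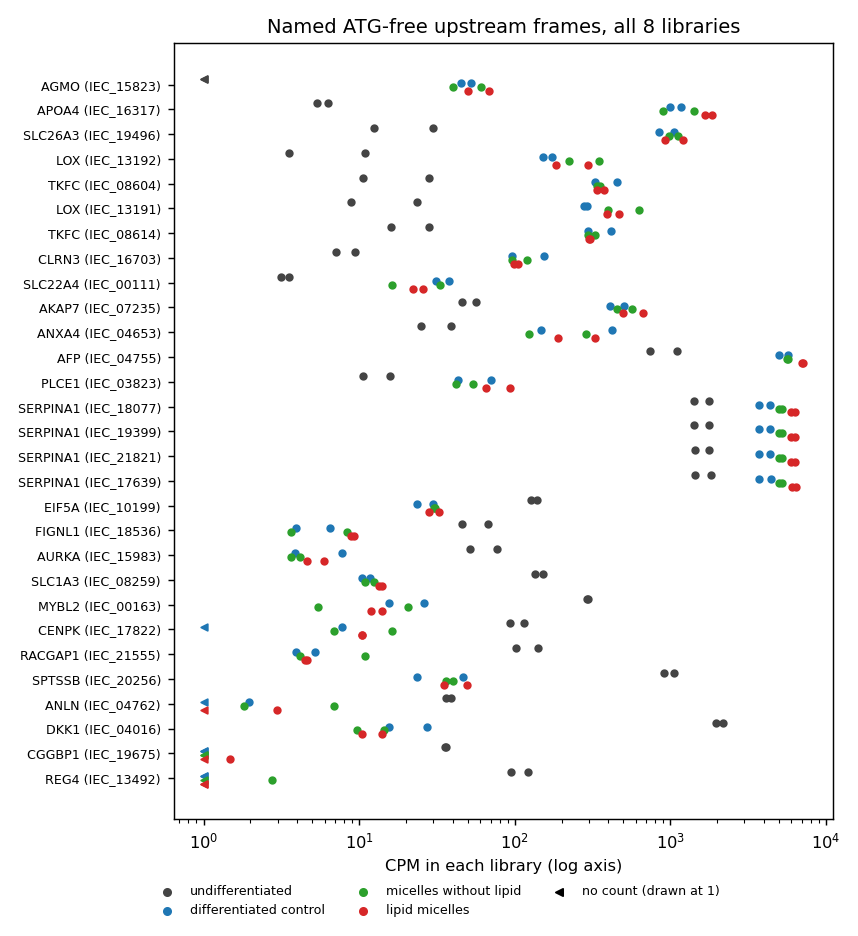
Each row is a named ATG-free upstream frame and each point 1 of the 8 libraries, coloured by group, with CPM on a log axis and triangles for libraries without a count. For each frame both undifferentiated points (dark) stand apart from the 2 control points, and the 4 SERPINA1 rows are nearly alike because their counts are shared.

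Frames were also grouped by the function of the host gene. The background called lower was 15.6% over all smORFs tested and 21.1% over ATG-free upstream frames. With 1 smORF per overlap cluster, 11 of 12 cell cycle frames were called lower. Of all 32 cell cycle frames tested, in 11 of 30 listed genes, 31 were called lower and 0 higher, with a median log2 difference of -3.70. They include CDC6, a DNA replication licensing factor (IEC_00122, 31 and 41 counts against 1 and 0), MKI67, the proliferation antigen Ki-67 (IEC_16699, 63 and 55 against 1 and 2), and TOP2A, topoisomerase II (IEC_18669, 29 and 14 against 0 and 1). Of 11 enterocyte frames tested, 8 were higher (background 17.7%) and 1 lower, with a median of 3.41. The median was 2.10 without control replicate 2 (7 of 12 higher), 2.26 without undifferentiated replicate 1, 1.86 with 1 smORF per overlap cluster (6 of 9) and 0.71 with 10 counts in every library (2 of 4), and the lower call was lost without undifferentiated replicate 2 or control replicate 1. Those that rose lie in APOA4, APOB, APOC3, FABP1, GATM and SLC2A2, and the one that fell in APOA1. SLC2A2, the glucose transporter GLUT2, went from 2 and 2 to 13 and 36 counts in IEC_14992, and GATM, which makes the creatine precursor, from 0 and 0 to 60 and 83 in IEC_24171. Only 6 of the 48 bases of IEC_24171 lie in annotated 5′ UTR, and it overlaps 3 other smORFs.

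Sterol synthesis frames included 5 called higher (20%) and 0 lower of 25 tested, with a median of 0.46, in FDPS, HMGCS1 and MSMO1. The share called higher is close to the background of 17.7%. With 1 smORF per overlap cluster 1 of 13 was called, without undifferentiated replicate 1 there were 2 higher, and without undifferentiated replicate 2 there were 4 higher and 2 lower with a median of 0.18. The frame IEC_07306 of FDPS, which makes farnesyl diphosphate, had 45 and 54 counts in undifferentiated and 176 and 283 in control cells (log2 difference 2.10 ± 0.26, SE, edgeR adjusted p = 1.33e-05). Translation factor frames had 13 called lower and 0 higher of 39 tested, with a median of -1.01. The background called lower was 15.6% over all smORFs tested and 21.1% over ATG-free upstream frames, whose median was -0.35. The lower calls lay in ABCE1, EEF1D, EIF2S1, EIF3A, EIF3D, EIF4G1, EIF5, EIF5A and EIF6. With 1 smORF per overlap cluster 6 of 16 were called lower. The count of lower calls was 3 of 41 without control replicate 2 and 7 by DESeq2's Wald test. It was 6 of 40 and 8 of 41 without undifferentiated replicate 1 and 2. EIF4G1, the scaffold of the cap-binding complex, fell from 47 and 50 to 10 and 19 counts in IEC_03048 (-1.85 ± 0.37, SE, edgeR adjusted p = 0.000951).

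Host genes known for upstream or non-ATG starts did not move as a group. The background over all smORFs tested was 17.7% called higher and 15.6% lower. Among stress genes with upstream ORF control, 1 of 10 frames tested was called, in PTP4A1, a phosphatase (IEC_03782, 28 and 9 counts against 36 and 63, edgeR adjusted p = 0.0146). In its named transcript that frame begins after the start of the main coding sequence, and its 75 bases are 5′ UTR only in other transcripts. The median over the 10 was -0.09, and it was above 0 under some alternatives, such as 0.29 for the 6 frames with 10 counts in every library, where 0 were called. Among genes with known non-ATG initiation, 2 of 25 were called, both lower, with a median of -0.29, close to that of all ATG-free frames. They lie in MRPL18, a mitochondrial ribosomal protein (IEC_07401, 91 and 84 counts against 26 and 27), and in POLG, the mitochondrial DNA polymerase (IEC_13959, which begins with CTG, 25 and 19 against 6 and 14). Frames in marker genes of other cell types were scarce. The most counted fibroblast frame, IEC_08627 in TAGLN (an actin-binding protein of smooth muscle and fibroblasts), had 18 and 7 counts in undifferentiated cells and 0 or 1 in every other library, and it did not pass the filter. The 13 fibroblast frames summed to between 0 and 62.9 CPM per library, with 5 of 13 at 0 throughout and the highest sums, 62.9 and 17.8, in undifferentiated cells, and the 17 immune cell frames to between 6.91 and 66, with 10 of 17 at 0. Their part in the differences above was not tested.

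The comparison of first codons with each other used counts summed over all frames of a first codon, as shares of the member counts, in 1 edgeR fit over 60 sums. Between control and undifferentiated cells 28 of 60 sums (46.7%) were called at an adjusted p under 0.05, 14 higher and 14 lower, and 0 of them reached 2-fold. The split depended on the scaling and the frames: it was 14 higher and 7 lower with TMM over the first codons, and 8 higher and 14 lower of 56 in frames that overlap no other smORF. Of the 9 near-cognate codons 3 were called. CTG fell by 0.45 ± 0.07 on the log2 scale (SE, edgeR adjusted p = 0.000332), from 3.12% and 2.78% of member counts to 2.04% and 2.29%, with 2.06% to 2.18% in the 4 micelle libraries. ATT rose by 0.51 ± 0.06 (adjusted p by edgeR = 2.19e-05) and ATA by 0.62 ± 0.11 (adjusted p by edgeR = 0.000487). The other 6 near-cognate codons did not pass the threshold, with log2 differences from -0.15 for ACG to 0.08 for AGG.

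Many of these sums rested on single frames. The most counted frame held between 3.3% and 69.2% of the sum of its first codon, with a median of 11.5%. TAT had the largest rise, 0.98 ± 0.08 (SE, edgeR adjusted p = 1.64e-06), and 69.2% of its counts lie in 1 SERPINA1 frame, without which it was 0.27 (adjusted p = 0.00489 by edgeR). For ATT, 37.2% lay in the AFP frame, and without it the difference was -0.07 (adjusted p = 0.245 by edgeR). For CTG, the top frame, in the histone gene H2AC6, held 10.3%, and the difference without it was -0.21 (adjusted p = 0.00775 by edgeR). SERPINA1 held the top frame of 5 first codons, all called higher, of which 3 were called without that frame. For GGA, which is 1 of the 3, a second SERPINA1 frame with the same counts remained in the sum. When the top frame of each first codon was left out, 14 of 60 sums were called, 12 of them among the 28 with the same sign, and 5 of the 28 changed sign. Some sums moved away from 0, such as AAC from 0.17 to 0.53 and GCA from -0.19 to -0.32. The near-cognate AGG went from 0.08, not called, to 0.21 (adjusted p = 0.00717 by edgeR). Leaving out the top frames also changes the total that every share is taken of.

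**Figure D5:**
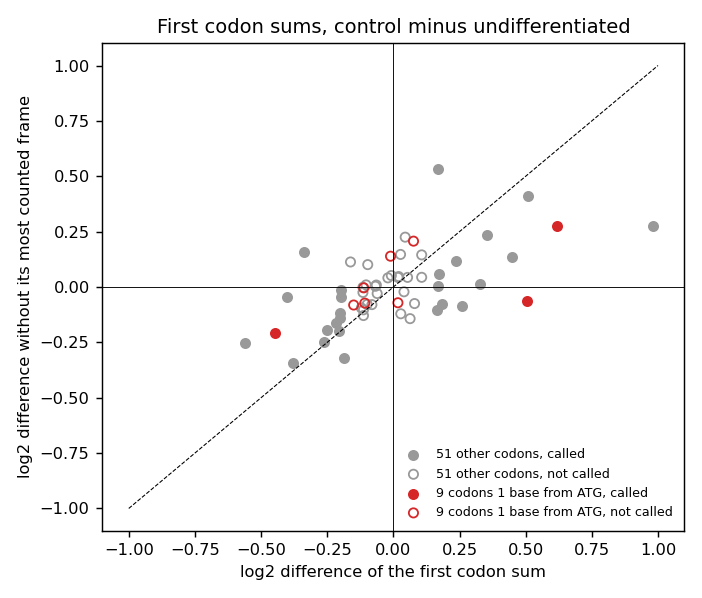
Each point is 1 of 60 first codons. The x axis is the log2 difference of its summed share between control and undifferentiated cells, and the y axis the same after its most counted frame is left out. Filled points were called at an adjusted p under 0.05 on the x axis, and red points are near-cognate. The points lie closer to 0 on the y axis for TAT (0.98 to 0.27), ATT (0.51 to -0.07) and CTG (-0.45 to -0.21). They lie farther from 0 for AAC (0.17 to 0.53), GCA (-0.19 to -0.32) and AGG (0.08 to 0.21).

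The micelle comparisons asked whether a bile salt micelle or its lipid cargo changed these frames in differentiated cells. In these main fits same-numbered libraries were not paired. For micelles without lipid against control, 0 of 7563 frames were called (background 0% of 15182 smORFs) by edgeR and 0 by DESeq2's Wald test, with 274 at an unadjusted p under 0.05. For lipid micelles against control, 0 were called (background 0%) by both tools, with 379 at an unadjusted p under 0.05. For lipid micelles against micelles without lipid, 0 were called (background 0%) by both tools, with 278 at an unadjusted p under 0.05. First codon sums likewise gave 0 of 60 (0%) in each of the 3 comparisons by edgeR, with 2, 6 and 2 at an unadjusted p under 0.05.

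The frames with the smallest p-values are given as values. RPS15A, a protein of the small ribosomal subunit, had 10 and 14 counts in IEC_15262 in control cells and 25 and 63 with micelles without lipid (edgeR adjusted p = 0.523). PHTF1, a membrane protein of the endoplasmic reticulum, had 0 and 0 against 3 and 10 in IEC_17664 (edgeR adjusted p = 0.858). EFNB1, the membrane ligand ephrin-B1, had 6 and 5 against 18 and 37 with lipid micelles in IEC_00116, and CBR1, a carbonyl reductase, 22 and 29 against 61 and 77 in IEC_04946 (both edgeR adjusted p = 0.957). APOE, the apolipoprotein that binds lipoprotein receptors, had 151 and 283 counts with micelles without lipid and 413 and 746 with lipid micelles in IEC_06033, which begins with AGG (edgeR adjusted p = 0.999).

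With the replicate number as a block, since same-numbered differentiated libraries deviated together, 3 frames were called higher for lipid micelles against micelles without lipid. All 3 lie in RPL13, which encodes a protein of the large ribosomal subunit, and were named after their values were seen. IEC_06558 had 184 and 569 counts with micelles without lipid and 635 and 1363 with lipid micelles (log2 difference 1.25, edgeR adjusted p = 0.0251), but also 276 and 734 in control cells. The block also gave 5 first codon sums for lipid micelles against control, with GGA, TAT, CTC and CCT higher and AAT lower, and 1, GGA, for micelles without lipid. The 5 most counted SERPINA1 frames lie in these 4 sums that were higher. TAT rose by 0.28 on the log2 scale (edgeR adjusted p = 0.000327 with the block and 0.0513 without it). Without the block 0 sums were called whether or not the top frame of each first codon was kept. Leaving these frames out could therefore not remove a call there. The block was not fitted without the top frames, so whether its calls rest on SERPINA1 was not tested.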

How the data were processed

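Raw counts per smORF and library, which the authors made from Ribo-Seq reads with HOMER and deposited without normalization, were used with the deposited annotation (first codon, class, RibORF score and mean PhyloCSF score, both scores computed by the authors). The submitters' processing notes name STAR 2.7.11a and hg38. The study assembled transcripts and translated them in 3 frames; strand and multi-mapping options of the counting are not given in the sources used here. All per-library columns were used.

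Frames were placed in GENCODE release 44 transcripts on hg38, with overlap judged on the same strand. The deposited sequence was identical to the genome for 10723 of 10762 frames. Counts of all smORFs were fitted with edgeR 4.0.16 in R 4.3.3 (filterByExpr, TMM, 8 libraries, 1 term per group, Benjamini-Hochberg adjustment). First codon sums were fitted likewise, with member counts as library size and no further scaling. DESeq2 1.42.0 was an alternative. Fold limits use 3 counts, or 3.49 to 5.86 CPM per library. Counting limits do not cover PCR duplicates. The fits were tested on simulated data.

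Groups came from the labels. Deviations from group means of edgeR log2 CPM correlated between same-numbered libraries at 0.198, 0.119 and 0.109 among the differentiated groups. On log2(CPM + 1) these 3 values were 0.173, 0.11 and 0.0956. Between any differentiated group and the undifferentiated group the edgeR values ran from -0.0653 to 0.0208. The main fits held no term for pairing. The replicate block was an alternative. It was fitted to the differentiated libraries for the micelle comparisons and to all 8 libraries for differentiation.

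The members and lists were chosen with earlier results of these data known. Named were the 5 frames with the highest mean CPM, the 2 with the largest change per first codon class and direction (at least 10 counts in both libraries of the higher group, 1 per host gene), the 2 with the smallest p per micelle comparison, and called members of host gene lists (up to 4 per list, or the most counted where none was called). Sequences were read with pysam 0.24.0, and tables and plots made in Python 3.11.15 with pandas 2.3.3 and matplotlib 3.10.9.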

Additional observations from a re-analysis of the deposited data

How the results depend on the processing

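The share of frames called with differentiation was 30.4% (2297 of 7563). It was 20% (1514) with the DESeq2 Wald test and 19.4% to 30.8% when 1 library was left out, lowest without control replicate 2. With 10 counts in every library 855 of 3915 were called and with 1 smORF per overlap cluster 880 of 2815. Lower calls outnumbered higher ones under all of these. With the replicate block it was 31%. For micelles without lipid, 5 frames (in PCNX1, RPS15A, SPINT2, OAF and ARF6) were called without a filter on low counts, and 0 to 5 with 1 library left out: 1 (PCNX1) without control replicate 2 and 5 (HAVCR1, RPS15A, TRIB3, ARF6, EGLN1) without replicate 1 of micelles without lipid. For lipid micelles against micelles without lipid, 3 were called without the filter (2 in RPL13, 1 in APOE) and 3 with the replicate block. These frames were named after their values were seen. Of 60 first codon sums, 28 were called. The count was 14 without the top frame of each first codon and 17 to 24 with 1 library left out, with 17 without control replicate 2 or lipid micelle replicate 2 and 18 without undifferentiated replicate 2. With the replicate block 21 were called. For micelles without lipid, 1 sum was called with the block and 0 to 1 with a library left out. For lipid micelles against control, 4 were called with TMM over the first codons, 5 with the block and 0 to 6 with a library left out. The ratio of CTG to frames without a near-cognate first codon, 0.934, was 0.698 for frames that overlap no other smORF and 0.794 for frames of 20 to 60 codons. The difference in share of counts, -8.03 percentage points, was -0.977 for frames that overlap no other smORF. These hold 14.8% to 15.8% of the member counts, so that fewer points follow from their smaller share. The causes of the other changes were not tested. For these counts, the ratio and the share, the other alternatives tried stayed within 1.5 times of the count, or within 1 SD. The host gene lists varied more: sterol synthesis had 1 to 6 higher calls and 0 to 2 lower, translation factors 3 to 13 lower, enterocyte frames 2 to 8 higher with medians of 0.707 to 3.45, and the median of the stress genes ran from -0.606 to 0.289.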
